A study of Mus with 2 samples.

Results

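Of 11369 barcodes kept from 2 single-cell RNA libraries of newborn mouse kidney, 344 carried Six2 RNA and no counted Cited1 RNA, and these Cited1-negative barcodes are described here. A barcode was kept when it held at least 2000 unique molecular identifiers (UMIs, each counting 1 captured RNA molecule) with at most 10% of them from mitochondrial genes. It entered the set with at least 1 UMI of Six2, no UMI of Cited1 or of the endothelial gene Pecam1, and at most 1 UMI each of Lhx1 (a gene of the renal vesicle), Top2a (a gene of dividing cells) and Col3a1 (a stromal collagen). Replicate 1 gave 182 such barcodes of 6220, or 2.93% (95% exact binomial interval 2.52 to 3.38). Replicate 2 gave 162 of 5149, or 3.15% (2.69 to 3.66), so the intervals of the libraries overlapped. All levels of these 6 genes follow from the choice and are given as description, without a test.

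Both libraries were prepared with the 10x Chromium system from kidneys at P0 with the genotype Rbpj c/- ; Foxd1cre/+, in which the floxed Rbpj allele was targeted in the renal interstitium by Foxd1Cre. Control libraries with the genotype Rbpj c/+ ; Foxd1cre/+ were not analysed here, so every comparison is between barcodes within mutant kidneys and no value measures the effect of losing Rbpj. Foxd1Cre is driven in the stromal lineage, and whether the floxed allele was recombined in any Six2-positive cell was not tested. The genotype writes the other Rbpj allele as -, a null allele by that notation, which every cell would carry with or without Cre. The labels do not say whether the libraries came from separate animals. The libraries entered the test as a block, so p-values measure only how far the differences between groups of barcodes varied across these 2 libraries. That spread may be technical.

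Nephron progenitors form a cap around each tip of the branching ureteric bud. The transcription factor Six2 holds them in the progenitor state, and Cited1, a transcriptional co-activator, marks the part of the cap that is least committed. Cells that lose Cited1 but keep Six2 are described as primed: they can respond to Wnt9b from the bud, switch on Wnt4, aggregate under the tip and form the renal vesicle, where Lhx1 and Notch signalling become active. Bone morphogenetic protein (BMP) signalling through SMAD proteins is known to help progenitors leave the Cited1-positive state, while fibroblast growth factor (FGF) signalling helps to maintain them.

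The libraries held 163405630 and 135436576 UMIs in all. Mitochondrial content removed 690 and 768 barcodes, and 6 barcode sequences were kept in both libraries. The median depth of the Cited1-negative barcodes was 12667.5 UMIs in replicate 1 and 12865.5 in replicate 2, and together they held 2630365 and 2309952 UMIs. Six2-positive barcodes with at least 2 Cited1 UMIs, called the Cited1 class below, numbered 799 and 819 and were deeper, with medians of 17408 and 14607 UMIs. All other kept barcodes numbered 5239 and 4168, with medians of 11020 and 11323 UMIs. Median mitochondrial shares were 5.71% and 6.02% in the Cited1-negative barcodes and 5.63% and 6.16% in the Cited1 class.

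Most Cited1-negative barcodes fell into 1 cluster, and a minority lay in clusters of other cell types. All kept barcodes were clustered without the 6 genes of the gate, which gave 34 clusters, of which 29 could be named from marker genes. The cluster led by Chgb, Col9a1, Fam132a, Bmper and Slc26a7 held 120 of the 182 barcodes of replicate 1 (65.9%, interval 58.6 to 72.8) and 107 of the 162 of replicate 2 (66.0%, 58.2 to 73.3). It took no cell type name, because its best-scoring list (neural) rested on 2 detected markers, with the nephron progenitor list next, and it is called the Col9a1/Bmper cluster here. Clusters named nephron progenitor-like held 12 and 16 of the Cited1-negative barcodes, and early nephron-like clusters held 1 and 2. A second unnamed cluster, led by genes that include Tagln and Actc1, held 10 and 8. In a finer clustering (Leiden resolution 2) a cluster with both genes among its leading genes was named mural-like and held 7 and 4. Clusters named for other cell types held 38 barcodes in replicate 1 (20.9%) and 28 in replicate 2 (17.3%). Of these 66, podocyte-like clusters held 26, erythroid-like clusters 19 and immune-like clusters 8. The label of primed nephron progenitors therefore goes against the cluster name of 66 of the 344 barcodes. The 18 barcodes of the second unnamed cluster are not counted among these 66. Gene counts against the Cited1 class are given below with and without the 66. Single levels include the 66 unless the matched comparison or a cluster is named.

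**Figure D1:**
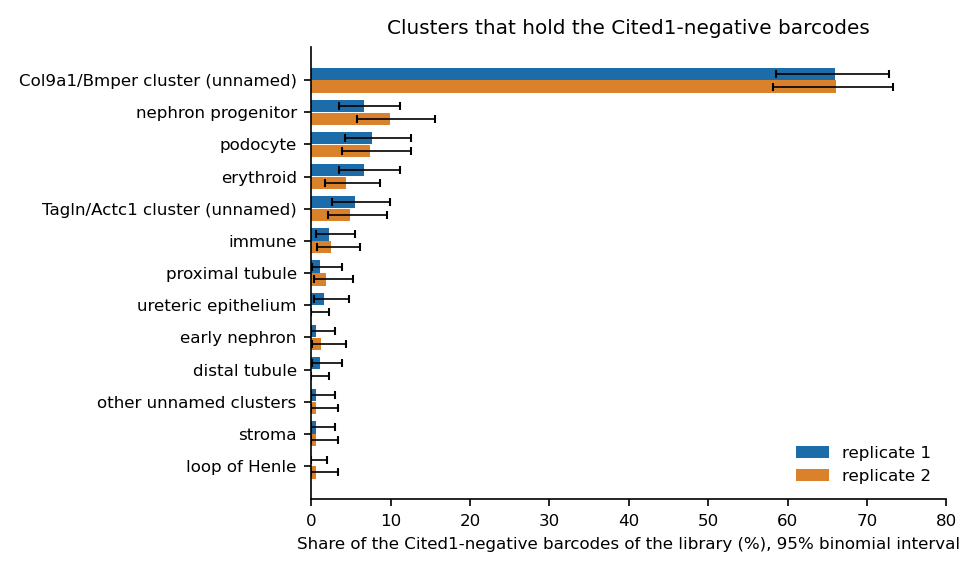
Share of the Cited1-negative barcodes of each library that fell in each cluster or group of clusters, in percent of that library's 182 or 162 barcodes; blue bars are replicate 1, orange bars replicate 2, and whiskers are exact 95% binomial intervals. The Col9a1/Bmper cluster held 65.9% and 66.0%, and no other group held more than 9.88%.

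The Six2 count separated these barcodes. In replicate 1, 100 of the 182 had a single Six2 UMI, and in replicate 2, 84 of the 162. Of these 184 barcodes, 65 lay in clusters of other cell types and 94 in the Col9a1/Bmper cluster. Of the 160 barcodes with 2 or more Six2 UMIs, 1 lay in a cluster of another cell type and 133 in the Col9a1/Bmper cluster. The share of all barcodes with a Six2 UMI was 71.5% and 73.3% in the Col9a1/Bmper cluster and 94.3% and 93.9% in nephron progenitor-like clusters. It was 4.94% and 5.83% in podocyte-like clusters, 4.48% and 2.88% in endothelial-like clusters and 2.43% and 2.20% in erythroid-like clusters. Droplets with at most 100 UMIs held Six2 at 49.4 and 48.4 counts per 1000000 UMIs (CPM). The part of free RNA in single Six2 UMIs was not tested.

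Marker levels are given as description, since the clusters were named from these lists. Eya1, a partner of Six2 in progenitors, stood at 141 CPM in replicate 1 and 127 in replicate 2 over all Cited1-negative barcodes. Osr1, an early gene of the nephron lineage, stood at 62.3 and 55.4 CPM. Nphs1, which encodes nephrin of the podocyte slit diaphragm, stood at 233 and 215 CPM over all Cited1-negative barcodes, and at 9.95 and 6.78 CPM over those in the Col9a1/Bmper cluster. Podxl, which encodes podocalyxin of the podocyte surface, stood at 295 and 447 CPM over all and at 1.11 and 2.71 CPM in that cluster. The 6 erythroid markers, mostly globins, summed to 22113 and 11032 CPM over all and to 2676 and 1886 CPM in the Col9a1/Bmper cluster, against 1208 and 1043 CPM in the Cited1 class. The 6 immune markers summed to 77.9 and 163 CPM over all, to 5.53 and 12.9 CPM in the Col9a1/Bmper cluster and to 5.04 and 4.64 CPM in the Cited1 class. No marker of the immune or erythroid list was at 0 UMIs over all Cited1-negative barcodes in either library. A doublet score marked 3 and 1 of the Cited1-negative barcodes.

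Barcodes just outside the gate were compared by level only. Barcodes that met every other condition but had 1 Cited1 UMI numbered 58 and 57. Wnt4 stood at 343 and 351 CPM in them, against 555 and 497 CPM in the Cited1-negative barcodes, and Crym, an NADPH-regulated thyroid hormone-binding protein of progenitors, at 84.0 and 53.5 against 25.5 and 41.6 CPM. With the same other gates and at least 2 Cited1 UMIs, 496 and 608 barcodes had Wnt4 at 57.8 and 47.1 CPM and Crym at 211 and 222 CPM. On the Six2 side, Cited1-negative barcodes with 1 Six2 UMI had Wnt4 at 339 and 317 CPM and Col9a1 at 71.1 and 26.3 CPM. Those with 2 or more had Wnt4 at 740 and 662 CPM and Col9a1 at 124 and 64.6 CPM. At Lhx1 the first step outside, with 2 UMIs, held 8 and 5 barcodes, in which Wnt4 stood at 62.4 and 52.8 CPM, against 445 and 406 CPM in the 18 and 19 barcodes just inside, with 1 Lhx1 UMI. Clusters of other cell types held 50% and 60% of those outside and 38.9% and 36.8% of those inside. The Col9a1/Bmper cluster held 0% in each library outside, against 44.4% and 42.1% inside. With 2 or more Lhx1 UMIs, 40 and 22 barcodes had Wnt4 at 169 and 157 CPM. At Top2a, 11 and 7 barcodes had 2 UMIs, with Wnt4 at 944 and 494 CPM, against 668 and 640 CPM in the 33 and 20 with 1 UMI. Single steps outside the Pecam1 and Col3a1 limits held 1 to 3 barcodes per library.

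Against the Cited1 class, the Cited1-negative barcodes carried more RNA of Wnt4, of BMP-responsive genes and of Slc26a7 and Fam132a, and less of Crym, Meox1, Itga8, Uncx and the FGF-responsive genes Etv4 and Etv5. UMIs were summed per library and class and tested with edgeR's quasi-likelihood test and Benjamini-Hochberg adjustment over all genes. Of 15662 genes outside the gate, 1187 were higher (7.58%) and 1026 lower (6.55%) in the Cited1-negative barcodes, 14.1% in all, and the median log2 fold change of all genes was -0.03. A second comparison was chosen after the clusters were seen. It leaves out barcodes in clusters named for other cell types and holds the Cited1 class to the same limits on Lhx1, Top2a, Pecam1 and Col3a1. Unnamed clusters were kept in it, so the 10 and 8 barcodes of the second unnamed cluster remain. In this matched comparison, with 144 and 134 Cited1-negative barcodes and 489 and 606 of the Cited1 class, 987 of 14093 genes were higher (7%) and 819 lower (5.81%), 12.8% in all, with a median of all genes of -0.01. With the limits matched but no cluster left out, 1630 of 14129 genes were higher (11.5%) and 915 lower (6.48%), 18% in all. The first and the matched comparison shared 517 of the higher genes, which is 43.6% of the first list and 52.4% of the matched list. They shared 456 of the lower genes, 44.4% of the first list and 55.7% of the matched list, and 20 higher and 32 lower genes of the first list were called in the opposite direction in the matched comparison. The clusters were drawn from these same genes, so the matched comparison is no independent check.

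The genes with the largest rises came almost wholly from barcodes of other cell types. Among the 12 genes with the largest positive change and at least 20 CPM in each library were BC100530, S100a9, Retnlg, S100a8, Lyz2, Tyrobp, Col4a3, Adm, Thsd7a, Nupr1 and Col4a4. S100a8, S100a9 and Retnlg are neutrophil genes, Lyz2 and Tyrobp belong to myeloid cells, and Col4a3 and Col4a4 are expressed in podocytes, as chains of the glomerular basement membrane. S100a9 stood at 616 CPM in replicate 1 and 117 in replicate 2, against 1.97 and 0.958 CPM in the Cited1 class, and its 1619 and 270 UMIs came from 6 barcodes in each library. Barcodes in clusters of other cell types gave 99.8% and 98.5% of those UMIs. Across these 11 genes the shares ran from 85.9% for Col4a4 in replicate 1 to 99.8%. In the matched comparison only Col4a3, Nupr1 and Col4a4 among the 11 remained called, and Col4a4 then stood at 23.9 and 19.7 CPM against 2.07 and 0.896 CPM, a log2 fold change of 3.94. The level lay mainly in the 10 and 8 barcodes of the second unnamed cluster, where Col4a4 stood at 231 and 270 CPM, against 3.87 and 0.678 CPM in the Col9a1/Bmper cluster. Col4a3 stood at 66.6 and 87.5 CPM in the second cluster against 1.66 and 0 CPM, and Nupr1 at 25.6 and 103 against 1.66 and 3.39 CPM.

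The genes with the largest falls were of 2 kinds. Prc1, Esco2, Kif11, Aurkb, Nusap1, Plk1, Pbk and Ccnb1, all genes of mitosis or chromosome cohesion, were lower by 3.12 to 5.27 on the log2 scale. The gate limits Top2a in the Cited1-negative barcodes and not in the Cited1 class, and in the matched comparison none of these 8 passed the test as lower. There Prc1, Kif11 and Esco2 had log2 fold changes of -0.82, -0.41 and -0.15, the other 5 were above 0, and Nusap1 was called higher, at 0.98 (quasi-likelihood adjusted p = 0.0122). Traf1, Fgf8, Meox1 and Dcx made up the other kind, and these 4 were lower in both comparisons. Traf1, an adaptor of tumour necrosis factor receptors, stood at 0.38 and 4.76 CPM against 21.8 and 74.3 CPM in the Cited1 class, at a log2 fold change of -4.19 ± 0.47 (SE, quasi-likelihood adjusted p = 0.0017). Its 1 and 11 UMIs were low in both libraries, with no overlap with the Cited1 class. Dcx, a microtubule-binding protein best known from migrating neurons, stood at 2.66 and 3.90 CPM against 24.9 and 35.9 CPM, at a log2 fold change of -3.18 ± 0.27 (quasi-likelihood adjusted p = 0.000587).

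**Figure D2:**
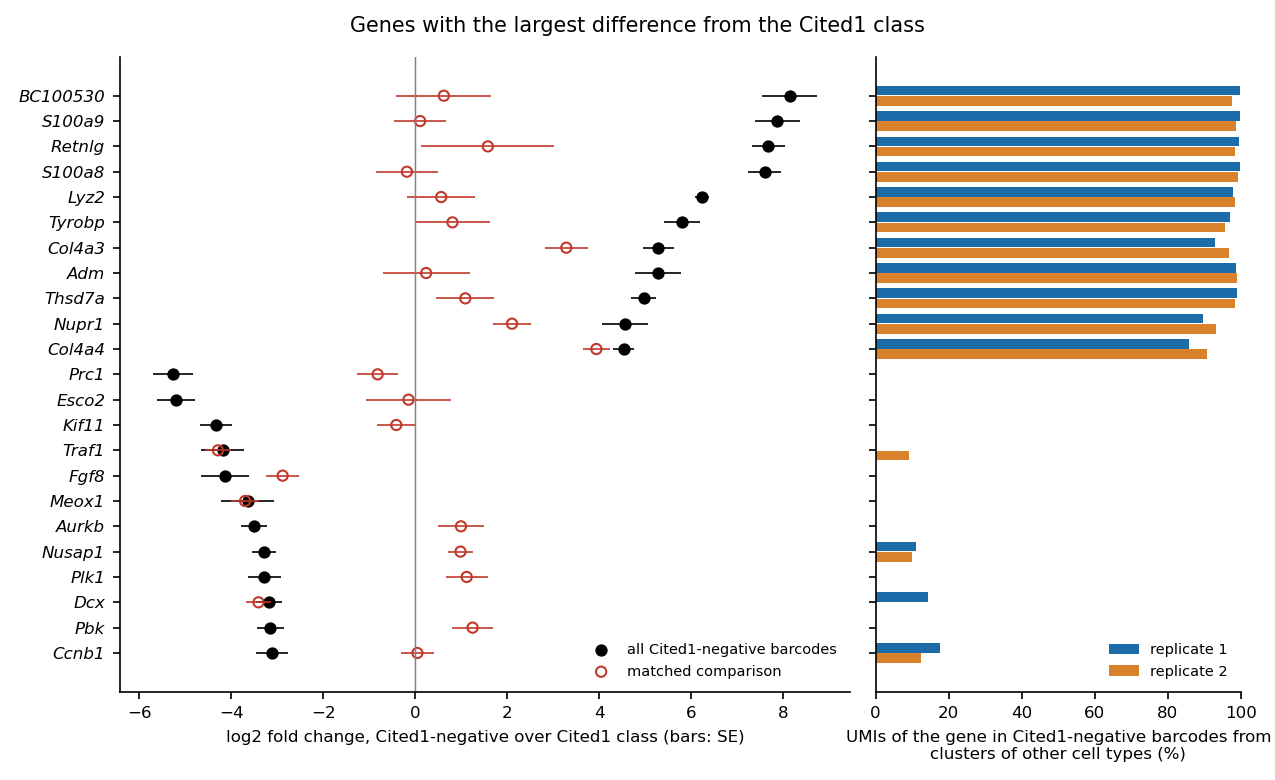
Left, log2 fold change of Cited1-negative barcodes over the Cited1 class for 11 of the 12 genes with the largest rise and the 12 with the largest fall; filled points use all barcodes, open points the matched comparison, and bars are SE. Right, percent of each gene's UMIs in Cited1-negative barcodes that came from clusters of other cell types, by library: 85.9% or more for each of the 11 higher genes and at most 17.6% for each of the 12 lower genes.

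BMP pathway genes were higher more often than lower. Of 18 genes on the list, all tested, 11 were higher and 1 was lower, with a median log2 fold change of 1.02. In the matched comparison 11 were higher and 1 was lower, with a median of 1.35. The called share was 66.7% in both, beside 14.1% and 12.8% of all genes. Among the ligands, Bmp4 stood at 85.9 and 69.3 CPM against 43.1 and 24.1 CPM in the Cited1 class, a log2 fold change of 1.26 ± 0.19 (SE, quasi-likelihood adjusted p = 0.00579). Bmp2, a ligand found in later nephron structures, was lower, at 0.760 and 1.73 CPM against 23.8 and 14.4, and was not called in the matched comparison, where it stood below 0.5 CPM in every class and library. Bmp7, a ligand that progenitors themselves make, did not pass the test, at 40.3 and 55.4 CPM against 52.0 and 51.5, but 78.3% and 82.8% of its UMIs lay in clusters of other types. In the matched comparison Bmp7 was lower, at 10.6 and 12 against 44.9 and 41.9 CPM. Bmper, a secreted protein that binds BMP ligands, stood at 79.5 and 56.7 CPM against 17.3 and 16.8, a log2 fold change of 2.02 ± 0.15 (quasi-likelihood adjusted p = 0.000338).

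Grem1, a BMP antagonist, was also called higher, from 10 and 2 UMIs. Among the intracellular members, Smad9, a receptor-activated SMAD, stood at 35.0 and 20.8 CPM in the Cited1-negative barcodes against 3.83 and 2.77 CPM in the Cited1 class. Its log2 fold change was 3.10 ± 0.22 (SE, quasi-likelihood adjusted p = 0.000291). The inhibitory SMADs were higher as well: Smad6 at 30.4 and 26.8 CPM against 14.2 and 12.7, and Smad7 at 189 and 153 CPM against 94.7 and 90.0. Smad1 and Smad5, the other receptor-activated SMADs of the branch, did not pass the test, with log2 fold changes of -0.25 and -0.28. The 4 Id genes encode inhibitors of basic helix-loop-helix factors and are direct targets of BMP signalling, and all 4 were higher. Id1 stood at 222 and 181 CPM against 94.5 and 64.2, and Id2 at 426 and 328 CPM against 143 and 105. Id3 stood at 777 and 684 CPM against 395 and 385, and Id4 at 55.5 and 42.4 CPM against 14.5 and 7.66. In every case both libraries of the Cited1-negative barcodes lay above both of the Cited1 class. The log2 fold changes were 1.39 ± 0.10, 1.63 ± 0.09, 0.93 ± 0.07 and 2.19 ± 0.22 (SE); quasi-likelihood adjusted p values were 0.000296, 0.000111, 0.000413 and 0.0012. Of the Id UMIs, between 3.42% and 12.3% came from clusters of other cell types, and the matched comparison gave log2 fold changes of 2.14, 2.44, 1.38 and 3.42. With a mitochondrial limit of 5%, which left 57 and 38 Cited1-negative barcodes, the calls for Id2, Id3 and Smad7 were lost, with log2 fold changes of 0.78, 0.42 and 0.47.

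Wnt4, the signal that drives aggregation and epithelial conversion, was higher in the Cited1-negative barcodes. It lies on chromosome 4 at 137277635 to 137299501 (GRCm38.p6). It stood at 555 CPM in replicate 1 and 497 in replicate 2, against 221 and 83.7 CPM in the Cited1 class and 178 and 178 CPM in all other barcodes. The log2 fold change over the Cited1 class was 1.91 ± 0.29 (SE, quasi-likelihood adjusted p = 0.00635). Both Cited1-negative sums lay above both sums of the Cited1 class, and the libraries of that class lay further apart than those of the Cited1-negative barcodes. In the matched comparison Wnt4 stood at 665 and 627 CPM against 58.5 and 47.2, a log2 fold change of 3.63. The call was lost with the 5% mitochondrial limit, at a log2 fold change of 0.42 with 57 and 38 Cited1-negative barcodes against 199 and 91 of the Cited1 class. Within nephron progenitor-like clusters, which held 28 Cited1-negative barcodes, the log2 fold change was 1.68 and also missed the threshold. In that smaller comparison Crym (-0.43), Itga8 (-1.02), Uncx (-0.52), Id2 (1.02), Bmper (1.11), Meox1 (-0.77) and Spry1 (0.52) missed the threshold too, and Nkd1 stood at 0.012. Etv4 had 2 and 4 UMIs in these 28 barcodes, Slc26a7 had 5 and 3, Smad9 had 0 and 2 and Smad6 had 2 and 2, too few for a direction. Wt1 (-0.34) turned direction without passing the test.

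Calls of the other early commitment genes, of the pretubular aggregate and renal vesicle, differed with the gates of the Cited1 class and with depth limits. Of 20 genes tested, 2 were higher (Cdh6 and Wnt4) and 5 were lower (Fgf8, Bmp2, Dkk1, Emx2 and Heyl), with a median log2 fold change of -0.69. With the limits matched and no cluster left out 11 were higher and 2 were lower, with a median of 1.27, and in the matched comparison 10 and 2, with a median of 0.88. In that order 35%, 65% and 60% were called, beside 14.1%, 18% and 12.8% of all genes. At 8000 to 20000 UMIs 10 were higher and 2 lower (median 1.26), where 742 of all 13578 genes were higher and 408 lower. After thinning to 5000 UMIs before gating 8 were higher and 1 lower (median 1.28), where 539 of all 11731 genes were higher and 244 lower. Cdh6, a cadherin of the early nephron, stood at 7.60 and 12.6 CPM against 3.67 and 1.51. Lef1, a partner of beta-catenin in transcription, stood at 14.1 and 16.5 CPM against 11.7 and 6.85 over all barcodes and did not pass the test, and at 13.8 and 13.7 against 0.575 and 0.199 CPM in the matched comparison, where it was called. Greb1 stood at 35.5 and 21.9 CPM against 2.53 and 2.29 in the matched comparison, and Jag1, a Notch ligand, at 21.6 and 12.6 against 4.25 and 3.98. Pax8, a transcription factor of the renal vesicle, stood at 28.5 and 48.7 against 25.1 and 19.2 CPM there. Its log2 fold change of 0.80 was called, with the wider gap in replicate 2. Fgf8 and Heyl were lower in both comparisons. Fgf8, which the renal vesicle needs to survive, stood at 0.38 and 4.76 CPM against 48.5 and 38.1, from 1 and 11 UMIs.

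Wnt pathway and target genes moved in both directions. Of 20 tested, 4 were higher and 4 lower, and in the matched comparison 7 of 19 were higher and 1 was lower. That is 40% and 42.1% called, beside 14.1% and 12.8% of all genes. Notum, a secreted feedback inhibitor of Wnt proteins, stood at 12.9 and 9.09 CPM against 1.93 and 0.756, a log2 fold change of 3.07 ± 0.36 (SE, quasi-likelihood adjusted p = 0.00222). Nkd1, another feedback inhibitor, stood at 42.2 and 26.8 CPM against 22.2 and 16.6. Axin2, the most widely used target of beta-catenin, did not pass the test, at 25.9 and 16.5 against 28.1 and 22.2 CPM. Tcf7l1, a repressor of Wnt targets, was lower in both comparisons, at 44.1 and 45 CPM against 77.6 and 95.4. The calls for Notum and Nkd1 were lost with the 5% mitochondrial limit, at log2 fold changes of 1.5 and 0.82, and that for Nkd1 also without library as a block. Within nephron progenitor-like clusters neither was called, and Notum had 2 and 0 UMIs there.

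Genes of self-renewing progenitors were lower for the most part. Of 17 genes on the list 16 were tested, 1 was higher and 10 were lower, with a median log2 fold change of -0.67. Matching the limits alone gave 2 higher and 12 lower, with a median of -0.74, and the matched comparison 3 and 9, with a median of -0.53. In that order the called shares were 68.75%, 87.5% and 75%, beside 14.1%, 18% and 12.8% of all genes. Crym stood at 25.5 and 41.6 CPM against 142 and 178 CPM in the Cited1 class, a log2 fold change of -2.24 ± 0.13 (SE, quasi-likelihood adjusted p = 0.000134). Meox1, a homeobox gene, stood at 1.14 and 5.63 CPM against 30.7 and 53.9, from 3 and 13 UMIs. Itga8, the integrin subunit through which the cap mesenchyme binds nephronectin, stood at 35.0 and 36.8 CPM against 107 and 113, at a log2 fold change of -1.59 ± 0.09 (quasi-likelihood adjusted p = 0.000136). Uncx, a homeobox gene, stood at 162 and 172 CPM against 483 and 476. Crym, Meox1, Itga8 and Uncx had log2 fold changes of -2.45, -3.70, -1.67 and -1.22 in the matched comparison. Meox2, Spock2, Sall1 and Eya1 were also lower, and Eya1 had the smallest change of these, -0.44 ± 0.11, at 141 and 127 against 174 and 200 CPM, and its call was not stable. It was lost with at least 2 Six2 UMIs (log2 fold change -0.16, quasi-likelihood adjusted p = 0.297), without clusters of other types (-0.20, 0.179), with the 5% mitochondrial limit (-0.74, 0.116), with all others split (-0.43, 0.108), within nephron progenitor-like clusters (-0.37, 0.653) and without library as a block (-0.45, 0.0526). Osr1 and Hoxc10 did not pass the test in either comparison. Wt1, which acts both in progenitors and in podocytes, was the gene that was higher, at 378 and 416 against 239 and 287 CPM, with 36.0% and 37.8% of its UMIs from clusters of other types. Tmem100 and Pax2 joined it in the matched comparison.

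Several FGF-responsive genes fell, while Fgfr3 and Spry1 rose. Of 18 FGF pathway genes tested, 2 were higher and 7 were lower, and the matched comparison gave the same counts. The called share was 50% in both, beside 14.1% and 12.8% of all genes. Thinning to 5000 UMIs before gating left 1 higher and 4 lower, and the calls of Etv5 (-0.71), Spry4 (-1.15), Il17rd (-0.59) and Fgfr3 (2.17) were lost. That left 27.8% of the list called, where 539 of all 11731 genes were higher and 244 lower. Etv4 and Etv5 encode transcription factors induced by FGF receptors and by Ret. Etv4 stood at 10.3 and 8.66 CPM against 64.6 and 64.6, a log2 fold change of -2.73 ± 0.14 (SE, quasi-likelihood adjusted p = 0.000103). Etv5 stood at 12.9 and 7.79 CPM against 40.7 and 35.6. Log2 fold changes of Etv4 and Etv5 were -2.49 and -1.55 in the matched comparison. Spry4, Dusp6 and Il17rd, which encode feedback inhibitors of the pathway, were lower as well, Dusp6 at 11.8 and 19.5 CPM against 37.0 and 31.2. The receptor Fgfr1 was lower, at 110 and 120 CPM against 236 and 237, and the receptor Fgfr3 was higher, at 11.8 and 8.66 against 2.54 and 0.756 CPM. Spry1, also a feedback inhibitor, differed in direction from Spry4: it was higher, at 117 and 95.7 CPM against 57.8 and 46.1, a log2 fold change of 1.07 ± 0.07 (quasi-likelihood adjusted p = 0.000251). The ligand genes Fgf20 and Fgf9 did not pass the test.

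Notch pathway genes were mostly below the test's threshold. Of 18 tested, 1 was higher (Notch2) and 4 were lower (Hes5, Notch1, Hes1 and Heyl), and in the matched comparison 3 were higher and 3 were lower. The called shares were 27.8% and 33.3%, beside 14.1% and 12.8% of all genes. After thinning to 5000 UMIs before gating, none of 17 tested was higher and 1 was lower (Hes1), or 5.88%. Of all 11731 genes tested there, 539 were higher and 244 lower. Hes1, a transcriptional repressor induced by Notch, stood at 55.1 and 59.7 CPM against 158 and 161, a log2 fold change of -1.45 ± 0.10 (SE, quasi-likelihood adjusted p = 0.000223), and of -1.74 in the matched comparison. Hes5 had no UMI in the Cited1-negative barcodes, against 3.11 and 3.33 CPM in the Cited1 class, which is at least 2.72-fold and 2.56-fold lower when 3 UMIs per library are taken as the limit of a count of 0. It was not called in the matched comparison, where the Cited1 class held it at 0.23 and 0.199 CPM. Notch1 stood at 8.36 and 14.3 CPM against 44.4 and 34.7, and Notch2, the receptor needed for proximal nephron fates, at 33.8 and 41.1 against 25 and 26.7 CPM. Rbpj, the targeted gene, stood at 66.2 and 60.6 CPM against 57.4 and 55.8 and did not pass the test, at a log2 fold change of 0.19 ± 0.09 (quasi-likelihood adjusted p = 0.223). UMIs were counted at the 3' end of transcripts, and the deleted exons are not given in the labels. This level therefore does not tell an intact Rbpj transcript from a recombined one, nor from any RNA of the - allele.

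**Figure D3:**
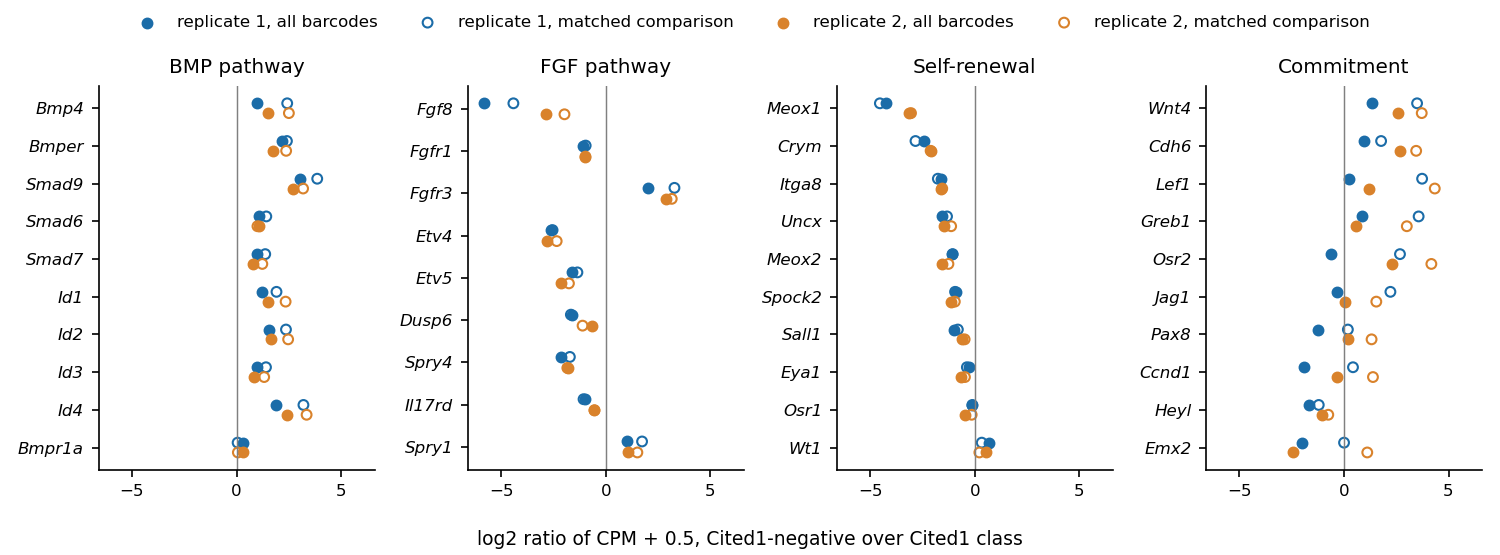
log2 ratio of CPM (with 0.5 CPM added) in Cited1-negative barcodes over the Cited1 class for genes of 4 lists, with 1 point per library. Filled points use all barcodes and open points the matched comparison, which leaves out clusters named for other cell types. Id1 to Id4, Smad6, Smad7 and Smad9 lie to the right of 0 in both libraries, Etv4, Etv5, Crym, Itga8 and Uncx lie to the left, and the open points of Pax8, Ccnd1 and Emx2 lie to the right of their filled points.

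Most cell cycle genes were lower over all barcodes, and few were in the matched comparison. Of 29 tested, 22 were lower and 1 was higher (Cdkn1c), with the limits alone matched 2 were lower (Mcm6 and Mcm3) and 5 higher, and in the matched comparison 2 were lower (Cdkn1c and Ccnd3) and 7 higher. The called shares were 79.3%, 24.1% and 31.0%, beside 14.1%, 18% and 12.8% of all genes. Mki67, a proliferation marker, stood at 35.7 and 29.4 CPM against 233 and 171 over all barcodes, and at 41.4 and 36.1 against 22.3 and 19.8 CPM in the matched comparison. After thinning to 5000 UMIs before gating 6 were lower and 2 higher (27.6%), where 539 of all 11731 genes were higher and 244 lower. Mki67, Cenpf and Birc5 were called lower there and higher in the matched comparison. At 8000 to 20000 UMIs 3 were lower and 2 higher (17.2%), where 742 of all 13578 genes were higher and 408 lower. Cdkn1c, a cell cycle inhibitor abundant in podocytes, stood at 1407 and 2655 CPM against 188 and 242, with 94.6% and 97.1% of its UMIs from clusters of other types. It was still higher with the limits alone matched, and lower in the matched comparison, which leaves those clusters out, at 91.6 and 95.7 against 158 and 163 CPM. Ccnd1, a G1 cyclin, had log2 fold changes of -1.12 over all barcodes, which did not pass the test, and 0.96 in the matched comparison, which did.

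Adhesion and polarity genes rose more often than they fell. Of 20 tested, 8 were higher and 2 lower, against 13 and 1 with the limits alone matched and 11 and 1 in the matched comparison. The called shares were 50%, 70% and 60%, beside 14.1%, 18% and 12.8% of all genes. Cldn5, a tight junction claudin, stood at 53.4 and 61.8 CPM against 4.37 and 3.18 in the matched comparison. Npnt, the nephronectin that Itga8 binds, stood at 29.9 and 21.9 against 15.1 and 10.7 CPM there, and over all barcodes 78.5% and 88.5% of its UMIs came from clusters of other types. Ncam1, a neural cell adhesion molecule also found in the cap, stood at 410 and 385 against 279 and 283 CPM in the matched comparison. Of the 9 tested collagens and matrix genes of cartilage type, Col9a1 was higher and Col11a2 was lower, 22.2% beside 14.1% of all genes. Both were also called among the 8 tested in the matched comparison, where Col2a1 was higher too, at a log2 fold change of 0.34 (quasi-likelihood adjusted p = 0.0351). Of 18 glycolysis genes none was higher and 3 were lower (Tpi1, Ldha and Gapdh), the largest change being -0.56 for Tpi1, and 15 did not pass the test. These 3 make 16.7% of the list, near the 14.1% of all genes called in either direction. The matched comparison gave 1 higher (Eno1) and 3 lower (Hk1, Tpi1 and Gpi1), 22.2% beside 12.8% of all genes.

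Several genes of the dissociation response were higher than in the Cited1 class. Of 12 tested, 5 were higher (Fos, Jun, Atf3, Ier3 and Dusp1) and none was lower, 41.7% beside 14.1% of all genes called. Atf3, a stress-induced transcription factor, stood at 0.38 CPM in replicate 1 and 74.9 CPM in replicate 2, and 97.7% of the latter came from clusters of other cell types. With the limits alone matched 6 of 11 were higher and none was lower, 54.5% beside 18% of all genes. In the matched comparison, which also leaves those clusters out, 2 were higher (Jun and Dusp1) and 2 were lower (Egr1 and Ier2), 36.4% beside 12.8%.

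The 4 genes put forward as markers together with Six2 split into pairs. Col9a1, which encodes a chain of type IX collagen and lies on chromosome 1 at 24177589 to 24252738 (GRCm38.p6), stood at 99.6 and 46.3 CPM against 15.6 and 15.2 CPM in the Cited1 class. Its log2 fold change was 2.24 ± 0.25 (SE, quasi-likelihood adjusted p = 0.00169). Bmper, on chromosome 9 at 23223076 to 23485215, was higher as given above. Dpp6, a potassium channel accessory protein, did not differ beyond the test's threshold, at 25.9 and 23.8 CPM against 21.3 and 14.8 (quasi-likelihood adjusted p = 0.181). Kazald1, a secreted protein with a Kazal-type domain, stood at 76.8 and 51.9 CPM against 68.9 and 75.7, at a log2 fold change of -0.13 ± 0.17 (quasi-likelihood adjusted p = 0.668). All 4 were higher than in all other barcodes, where they stood at 3.30 to 7.16 CPM. Col9a1 kept its direction in every alternative, but its call was lost with the 5% mitochondrial limit and within nephron progenitor-like clusters, with log2 fold changes of 1.53 and 1.95.

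Levels were also read across the amount of Cited1, after each barcode was thinned to 5000 UMIs and the gates were applied to the thinned counts. Barcodes in clusters of other cell types were not left out here. Wnt4 stood at 434 CPM in the 173 barcodes of replicate 1 with no Cited1 UMI. It stood at 97.2 CPM with 1 UMI, 58.7 CPM with 2 to 3, 22.7 CPM with 4 to 7 and 16.7 CPM with 8 or more. Replicate 2 gave 374, 125, 59.1, 20.8 and 10.4 CPM over the same steps. Wnt4 was thus lower at each step of Cited1 in both libraries. Id2 went from 398 to 69.4 CPM in replicate 1 and from 298 to 28.6 CPM in replicate 2, between no Cited1 UMI and 8 or more. Id3 went from 729 to 269 and from 641 to 306 CPM. Crym ran the other way, from 53.2 to 286 CPM in replicate 1 and from 88.3 to 265 CPM in replicate 2, and Hes1 from 102 to 231 and from 113 to 226 CPM. Six2 itself stood at 282 and 298 CPM with no Cited1 UMI and at 414 and 397 CPM with 8 or more. These bins were defined by a gene of the gate, so the levels are a description without a test.

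**Figure D4:**
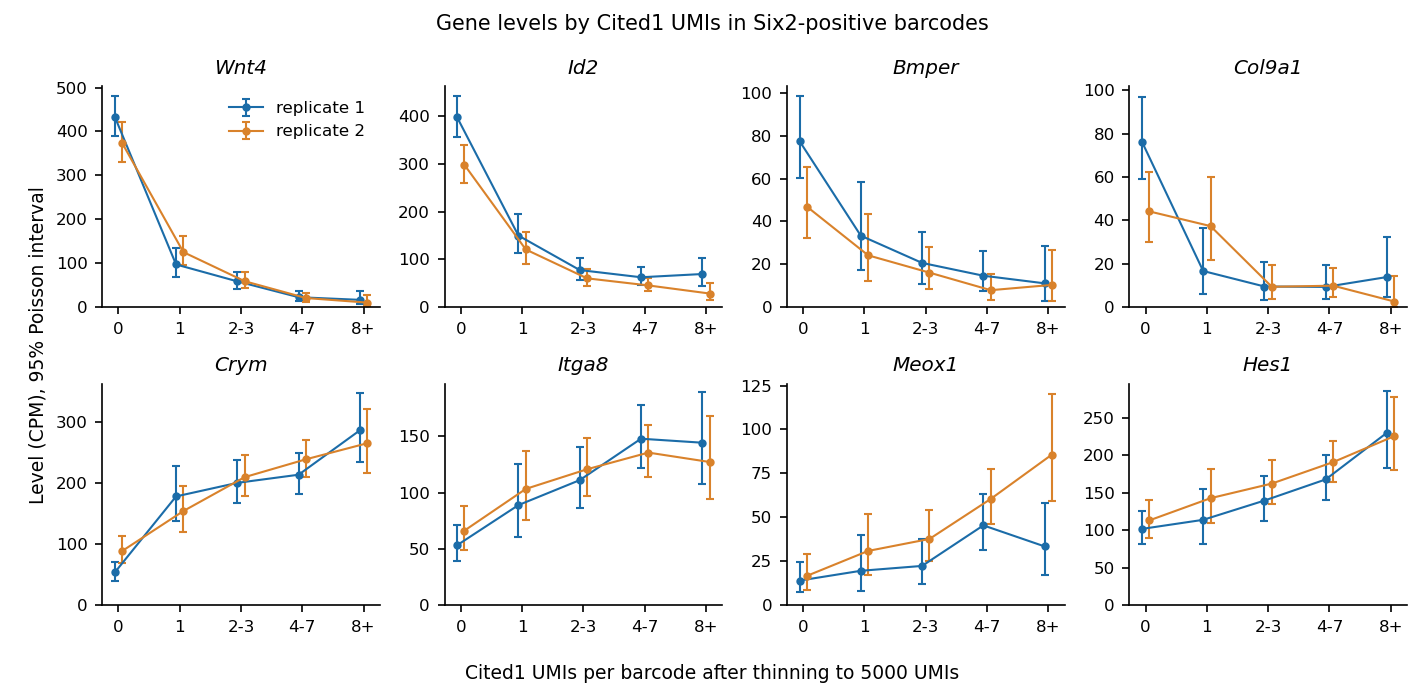
Level of 8 genes in CPM (vertical axis, from 0) in Six2-positive barcodes that pass the other gates, by the number of Cited1 UMIs left after thinning to 5000 UMIs (horizontal axis); lines join the bins of 1 library and bars are 95% Poisson intervals, which cover counting error only. Wnt4 went from 434 and 374 CPM with no Cited1 UMI to 16.7 and 10.4 CPM with 8 or more, while Crym went from 53.2 and 88.3 CPM to 286 and 265 CPM.

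At equal depth the differences showed as shares of barcodes. After thinning to 5000 UMIs, which left out 16 Cited1-negative barcodes in each library, Wnt4 was detected in 56.0% (interval 48.1 to 63.7) and 54.8% (46.4 to 63.0) of them. The Cited1 class had 22% and 14.6%, and endothelial-like clusters, which should lack Wnt4, had 3.03% of 627 and 2.15% of 418 barcodes, from clusters whose median depths before thinning were 8609 and 9045 UMIs. The shares without thinning were 58.8% and 59.9% in the Cited1-negative barcodes and 38.3% and 27.1% in the Cited1 class. Crym was detected in 10.8% and 20.5% against 49.7% and 58.7%, with 0.957% and 1.44% in endothelial-like clusters. Smad9 was detected in 12% and 13% against 2.27% and 0.735%, and Etv4 in 5.42% and 2.05% against 20% and 23.5%. Kazald1 was detected in 29.5% and 22.6% against 31.5% and 31.6%. Meox1 was found in 0.602% and 2.74% of Cited1-negative barcodes, below the 27.4% and 22.7% of endothelial-like clusters, so those do not serve as a background for it. Restricted to the Col9a1/Bmper cluster, 70.1% and 72.3% of the thinned Cited1-negative barcodes had a Wnt4 UMI.

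**Figure D5:**
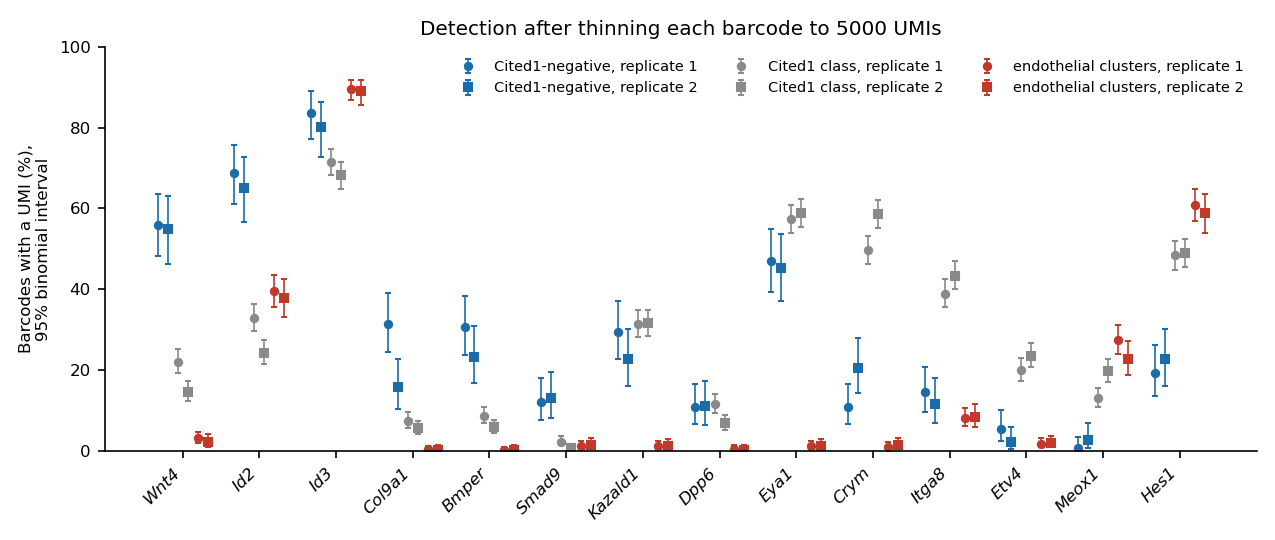
Percent of barcodes with at least 1 UMI of each gene after thinning to 5000 UMIs, for the Cited1-negative barcodes (blue), the Cited1 class (grey) and endothelial-like clusters (red), with circles for replicate 1, squares for replicate 2 and exact 95% binomial intervals. Wnt4, Id2, Col9a1, Bmper and Smad9 lie above the Cited1 class in both libraries, and Crym, Itga8, Etv4, Meox1 and Hes1 lie below it.

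The Cited1-negative barcodes differed among themselves by cluster. In the Col9a1/Bmper cluster Wnt4 stood at 746 CPM in both libraries. In nephron progenitor-like clusters it stood at 429 and 156 CPM, from 12 and 16 barcodes, and in clusters of other cell types at 37.1 and 4.16 CPM. Crym stood in the Col9a1/Bmper cluster at 27.6 and 38.7 CPM, against 85.9 and 194 CPM in nephron progenitor-like clusters. Six2 stood at 145 and 161 CPM in the Col9a1/Bmper cluster and at 196 and 275 CPM in nephron progenitor-like clusters. Within the Col9a1/Bmper cluster, barcodes of the Cited1 class numbered 84 and 79. They had Wnt4 at 515 and 238 CPM, Crym at 86.4 and 102 CPM, and Smad9 at 7.91 and 8.96 CPM against 44.8 and 27.1 CPM in the Cited1-negative barcodes of the cluster. The cluster was drawn from these genes, so its levels are given without a test.

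Set against all other kept barcodes, 2147 of 15662 genes were higher in the Cited1-negative barcodes (13.7%) and 2666 lower (17%), 30.7% in all, by the same test. All others include every other cell type of these kidneys. The 10 genes with the largest rise and at least 50 CPM in each library were Bmper, Eya1, Kazald1, Slc26a7, Osr1, Fam132a, Snap91, Spock2, Col2a1 and Pclo. Fam132a, which encodes the secreted protein adipolin, stood at 738 and 488 CPM against 72.4 and 69.9 CPM in all others and 154 and 139 CPM in the Cited1 class. Slc26a7, an anion exchanger, stood at 76.4 and 65.4 CPM against 8.31 and 7.31 in all others and 7.01 and 8.37 in the Cited1 class. Of the 10 genes, Bmper, Slc26a7, Fam132a and Pclo were also higher than in the Cited1 class, Eya1, Snap91 and Spock2 were lower than there, and Kazald1, Osr1 and Col2a1 did not pass that test. The call of Snap91 was lost in the matched comparison (-0.23, quasi-likelihood adjusted p = 0.126, from -0.44). Without clusters of other types all 10 were still higher than in all others, with log2 fold changes of 3.18 to 3.81. In the fit of the matched comparison, where barcodes of the Cited1 class outside the matched limits count among all others, they were higher by 1.90 (Spock2) to 3.57 (Slc26a7), with Eya1 at 2.47 and Osr1 at 2.42. Of the 16 tested self-renewal genes 13 were higher than in all others and none was lower, with a median log2 fold change of 1.53. Of the 20 commitment genes 2 were higher (Wnt4 and Cdh4) and 15 were lower, with a median of -2.22.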

How the data were processed

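The deposited matrices hold counts of UMIs per gene and barcode, unfiltered, written by Cell Ranger 4 per the file headers, while the submitters' processing notes name Cell Ranger 6.0.1 and the build mm10. The authors' counts were used as deposited. Barcodes were kept at 2000 UMIs and 10% mitochondrial UMIs. Clusters (scanpy 1.11.5, 2000 variable genes, 30 components, 15 neighbours, Leiden resolution 1) were named from the best-scoring marker list (mean z-score of at least 0.3) when at least 3 of its markers were detected in 10% of barcodes, the cluster held 20 barcodes, and its top 10 genes by fold held no more markers of another list; very shallow clusters also needed a marker of their own there. Doublets were scored with Scrublet and kept, except in 1 alternative. UMIs were summed per library and class into 6 columns and fitted with edgeR 4.0.16 (R 4.3.3, TMM, filterByExpr, library as a block, quasi-likelihood test, threshold 0.05, 2 residual degrees of freedom). On simulated counts the fit recovered 75 of 110 genes changed by 1 on the log2 scale and 89 of 90 changed by 2, with 2 false calls. Apart from the changed genes the simulated classes did not differ, unlike the classes here. Libraries were numbered in sample order; each gave all 3 classes, so the block pairs classes of 1 library. CPM are UMIs of a gene per 1000000 UMIs of the class. Intervals (95%) and the limit of 3 UMIs for a count of 0 cover counting error only. Named genes were the 12 with the largest change in each direction at 20 CPM in each library against the Cited1 class, the 10 largest rises at 50 CPM in each library against all others, the proposed markers, and up to 4 examples per direction of each of 11 lists plus genes that define the list; other list genes were named after their values were seen. Of the 12 largest rises, 1 is not reported here. The barcodes, lists and tests were chosen with earlier results of these data known. Coordinates are those of RefSeq genes on GRCm38.p6, the assembly that mm10 names. Alternatives covered normalization, DESeq2 1.42.0, filters, depth, gates, doublets, clusters and single libraries.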

Additional observations from a re-analysis of the deposited data

Results flagged for a closer look

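EYFP, a feature added to the reference and not described in the labels, carried UMIs in the Cited1-negative barcodes, a signal outside the comparisons above. It stood at 28.5 CPM in replicate 1 (75 UMIs, 95% Poisson interval 22.4 to 35.7) and 25.1 CPM in replicate 2 (58 UMIs, 19.1 to 32.5), above the 1.14 and 1.30 CPM that a count of 0 allows. It was found in 18 of 182 and 13 of 162 barcodes. The Cited1 class had 12.8 and 12.5 CPM, all others 75.8 and 71.2 CPM, and stroma-like clusters 388 and 372 CPM. Of the EYFP UMIs in the Cited1-negative barcodes, 73.3% and 82.8% lay in clusters of other cell types. In those of the Col9a1/Bmper cluster EYFP stood at 10.5 and 6.11 CPM. Droplets with at most 100 UMIs had 48.0 and 49.0 CPM.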

How the results depend on the processing

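Counts of genes moved most with the gates and with which barcodes entered. Against the Cited1 class the count higher was 1187 and the count lower 1026. It became 371 and 504 with at least 2 Six2 UMIs, 742 and 408 at 8000 to 20000 UMIs, 539 and 244 after thinning before gating, 13 and 16 in nephron progenitor-like clusters only, and 687 higher without clusters of other types. Against all others the counts of 2147 and 2666 became 474 and 807 in nephron progenitor-like clusters, 584 and 904 with a 5% mitochondrial limit, and 1185 higher after thinning. Matching the other gates moved the share of calls that were higher from 53.6% to 64.0%, thinning to 68.8%, and 2 Six2 UMIs to 42.4%. The share of kept barcodes in the set, 3.04%, was 1.42% with 2 Six2 UMIs, 1.98% at the 5% limit, 2.46% without other types and 0.252% in nephron progenitor-like clusters, and 2.93% to 3.15% by library. The leading cluster held 52.9% of the barcodes at Leiden resolution 0.5 and 52.0% at 2, where it was named nephron progenitor-like. At 10000 UMIs detection was 67.6% for Wnt4, 78.2% for Id2 and 25% for Crym, against 55.4%, 66.9% and 15.7%.

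Of 1425 alternative values for 80 gene results, 130 kept their direction and lost their call, 45 of them in nephron progenitor-like clusters, 18 with 2 Six2 UMIs and 14 at the 5% mitochondrial limit. Leaving out replicate 1 or 2 moved 30 and 22 of the 80 values by more than 1 SD between libraries without a change of direction. It turned the direction of a further 2 and 1 values, given below. These single-library values are log2 ratios of CPM + 0.5 and not fitted values. In all 43 values turned direction (log2 fold changes against the Cited1 class follow). With the other gates matched these were Aurkb 0.62, Nusap1 0.80, Plk1 0.65, Pbk 0.77, Bmp2 1.92, Emx2 1.96, Jag1 2.0, Pax8 0.77 and Rbpj -0.0465. In the matched comparison they were S100a8 -0.18, Aurkb 0.99, Nusap1 0.98, Plk1 1.12, Pbk 1.25, Ccnb1 0.0464, Bmp2 0.25, Emx2 0.71, Jag1 2.09 and Pax8 0.80. At 8000 to 20000 UMIs they were Bmp2 0.49, Emx2 1.97, Jag1 1.87 and Pax8 0.96, and after thinning Bmp2 0.083, Emx2 2.63, Jag1 1.26, Pax8 0.51 and Rbpj -0.0861. In nephron progenitor-like clusters they were Dpp6 -0.25, Kazald1 0.31, Smad6 -0.12, Wt1 -0.34, Jag1 1.25, Pax8 0.48 and Cldn5 -0.51. Kazald1 was 0.20 and Hey1 -0.22 with 2 Six2 UMIs, Kazald1 0.11 and Jag1 0.056 without other types, and Dpp6 -0.63 at the 5% limit. With 1 library left out, Jag1 ran from -0.34 to 0.0334, Pax8 from -1.24 to 0.19 and Kazald1 from -0.54 to 0.16. The cause of these moves was not tested, except that the matched gates limit Top2a and Lhx1 by construction. The calls for Id1, Id4 and Hes1 held in every alternative that gave a test. Without the replicate block the counts were 1208 and 1077, and the calls of Eya1 (-0.45) and Nkd1 (0.87) were lost; no other named call was. No fold was taken where a class had no UMI. With 344 barcodes and 2630365 and 2309952 UMIs, levels near 1 CPM rest on few UMIs.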

Other observations

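Barcodes of the Col9a1/Bmper cluster without a Six2 UMI numbered 103 and 84. They carried Wnt4 at 697 and 602 CPM, Bmper at 69.4 and 83.4 CPM and Id2 at 382 and 366 CPM, beside 746 and 746, 98.9 and 71.2, and 505 and 431 CPM in the Cited1-negative barcodes of the same cluster. Their median depths were 11247 and 12194 UMIs.

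The 10 and 8 Cited1-negative barcodes of the second unnamed cluster had their own profile. The smooth muscle gene Tagln stood at 2433 and 2473 CPM, against 44.8 and 38.7 CPM in the Col9a1/Bmper cluster, and Acta2 at 2408 and 1217 CPM. Id3 stood at 1793 and 1543 CPM, Bmp4 at 302 and 239 CPM and Wnt4 at 123 and 143 CPM. Of these 18 barcodes, 13 had a single Six2 UMI.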
